A study of Mus musculus with 3 samples.

Results

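The 10 genes described here make, coat, fuse or break down the triglyceride stores of cells: Cidea, Cideb, Cidec, Plin2, Plin4, Mogat1, Dgat1, Dgat2, G0s2 and Pnpla2. They were chosen by name for these roles, but with their processed signals in the same tissues already known, so the levels and differences below describe them and test nothing. They are 10 of 19712 named genes of the array and are read by 16 of its 41174 gene probes. Plin2 stands in the files under its older name Adfp, and Plin4 under S3-12. RNA of 3 organs of C57BL/6 mice was compared, with 1 Agilent Cy3 array per organ: adult liver from animals 12 weeks old, fetal liver of gestation day 13.5, and bone marrow, for which the wording does not settle whether the same 12 weeks apply. No mutation or treatment is named for any of them, and the sources used here do not state sex, number of animals or pooling. There were no replicates, so no p-value or spread between animals could be had.

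Cells keep spare fatty acids as triglyceride in lipid droplets, which consist of a neutral lipid core under a coat of proteins. Proteins of the CIDE family sit where droplets touch and pass lipid between them, and perilipins cover the droplet surface and control access of lipases to the core. Monoacylglycerol and diacylglycerol acyltransferases build the triglyceride, adipose triglyceride lipase begins its breakdown, and the hepatocyte uses the same store to load lipoproteins and to feed fatty acid oxidation.

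The promoters of 5 members are shown as examples. They do not mark the ends of the pattern reported below, where Dgat1 was highest in bone marrow. Of the 5 genes, Cidec, Plin4, Mogat1 and G0s2 passed 4-fold towards adult liver against both other organs. Pnpla2 did so against fetal liver only. Each is a RefSeq window of 300 bases on GRCm38.p6, with 250 bases before the transcription start and 50 from it on, written 5′ to 3′ on the gene's strand. Capitals mark the motifs searched for.
Cidec: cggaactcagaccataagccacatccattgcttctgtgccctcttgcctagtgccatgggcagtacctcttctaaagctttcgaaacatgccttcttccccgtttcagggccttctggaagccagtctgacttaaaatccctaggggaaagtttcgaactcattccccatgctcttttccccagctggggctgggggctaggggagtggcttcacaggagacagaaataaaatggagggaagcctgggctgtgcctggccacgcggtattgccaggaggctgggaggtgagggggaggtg
Plin4: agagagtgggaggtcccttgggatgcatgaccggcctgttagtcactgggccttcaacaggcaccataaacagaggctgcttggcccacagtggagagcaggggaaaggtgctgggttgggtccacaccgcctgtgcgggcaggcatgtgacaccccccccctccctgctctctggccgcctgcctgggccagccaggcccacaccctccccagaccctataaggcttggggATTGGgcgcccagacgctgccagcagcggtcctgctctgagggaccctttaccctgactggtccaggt
Mogat1: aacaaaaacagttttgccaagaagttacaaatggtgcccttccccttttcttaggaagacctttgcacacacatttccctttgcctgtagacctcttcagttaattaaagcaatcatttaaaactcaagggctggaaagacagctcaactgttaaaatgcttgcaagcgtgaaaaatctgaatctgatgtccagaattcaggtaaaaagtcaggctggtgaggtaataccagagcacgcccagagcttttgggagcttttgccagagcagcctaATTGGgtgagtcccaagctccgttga
G0s2: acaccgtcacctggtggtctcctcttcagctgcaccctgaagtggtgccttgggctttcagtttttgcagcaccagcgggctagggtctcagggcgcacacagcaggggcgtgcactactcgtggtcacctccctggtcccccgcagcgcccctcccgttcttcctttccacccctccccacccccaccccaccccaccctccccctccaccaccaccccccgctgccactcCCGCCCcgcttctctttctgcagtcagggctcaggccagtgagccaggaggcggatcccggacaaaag
Pnpla2: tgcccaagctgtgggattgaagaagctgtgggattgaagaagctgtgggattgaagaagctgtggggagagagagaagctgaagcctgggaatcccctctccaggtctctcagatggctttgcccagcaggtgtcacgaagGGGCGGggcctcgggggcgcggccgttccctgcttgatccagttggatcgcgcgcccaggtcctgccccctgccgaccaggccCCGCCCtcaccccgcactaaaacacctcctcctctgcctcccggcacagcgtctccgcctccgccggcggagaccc

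Promoter windows were searched for 7 of the 10 members, 8 entries in all because Cidec has 2 starts. Cidea was left out of the search, so whether it has an entry is not stated. No entry was found under the names Dgat1 and Dgat2. What follows about members covers only these 7. Both strands were searched for 6 motifs, and no matches overlapped. Among 32851 promoter entries of the mouse, 13.6% held a TATA box, spelled TATAAA, and 7.15% held an E-box, spelled CACGTG. A GC box, spelled GGGCGG, was present in 35.7% and a CCAAT box, spelled as its name, in 37.4%. The core site of many nuclear receptors, spelled AGGTCA, was present in 16.3%. A pair of such core sites 1 base apart, the layout that peroxisome proliferator-activated receptors bind, was spelled out in 0.0396% of all entries and in none of the members' windows. Plin2 held the most kinds among the members: an E-box across the start at -4 to 2, a GC box at 15 to 20, a CCAAT box at -73 to -69 and a core site on the opposite strand at -218 to -213. Cideb carried a TATA box at -172 to -167 and a GC box at -144 to -139. Plin4 had only a CCAAT box on the opposite strand at -18 to -14, and Mogat1 one at 25 to 29. G0s2 had a GC box on the opposite strand at -18 to -13, and Pnpla2 held 2, at -109 to -104 and, on the opposite strand, at -26 to -21. Neither window of Cidec spelled any of these motifs. GC content ran from 43.7% in Mogat1 to 66.7% in G0s2, against a median of 52.7% over all entries, and Pnpla2 had 18 CpG dinucleotides where the median entry had 7. A match is a description of letters, not a bound site, and its absence says nothing about a factor.

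Of 43379 gene spots per array, 52.62% (adult liver), 58.68% (fetal liver) and 58.77% (bone marrow) stood well above background, and no spot was saturated. Each signal was divided by the 75th percentile of its own array, at 296.5 (adult liver), 386 (fetal liver) and 894.5 (bone marrow), before tissues were compared. Signals below are the processed signals as deposited, in scanner units, and the error beside a signal is the scanner software's own estimate for that spot. A call here means a difference of at least 4-fold. Where a probe did not clear background in 1 tissue, "at least" marks a bound, taken against the lowest signal well above background on that array or the dim probe's own signal if that was higher. The organs carried their markers: all 7 hepatocyte genes measured, such as albumin, stood well above background in adult liver, and 6 did so in fetal liver and 3 in bone marrow, with summed scaled signals of 2530, 435 and 0.227 in that order of tissues. Of the 8 erythroid markers, 3 stood well above background in adult liver and all 8 in the other organs, with sums of 51.9, 738 and 530 in the same order.

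Read by 1 probe per gene, all 10 genes cleared background in adult liver, while 9 did so in fetal liver and 8 in bone marrow. Of their 16 probes, 16, 13 and 12 did so in that order. Outside adult liver, Mogat1 counts through its brightest probe only, since its others were dim there. In adult liver over fetal liver, 9 of the 10 passed 4-fold towards adult liver and none towards fetal liver. Among all 14186 genes compared, 14.1% passed 4-fold towards adult liver and 12.1% towards fetal liver. In adult liver over bone marrow, 8 of the 10 passed 4-fold towards adult liver and none towards bone marrow, where 18.8% and 15.0% of 14245 genes were called in those directions. Fetal liver and bone marrow could be compared for 9 of the 10. None passed 4-fold towards fetal liver and 2, Dgat1 and G0s2, towards bone marrow, where 9.33% and 8.30% of 14677 genes were called in those directions. The members' median difference was 20.9-fold towards adult liver over fetal liver, 18.4-fold towards adult liver over bone marrow and 1.32-fold towards bone marrow over fetal liver. On the log2 scale those medians were 4.38, 4.21 and -0.40, and the medians over all genes were -0.06, 0.09 and 0.26. Because the genes were chosen with these values in view, nothing is read from the members' counts beside the shares over all genes. In RNA of whole organs, fewer cells of a type and less RNA of a gene per cell cannot be told apart.

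**Figure D1:**
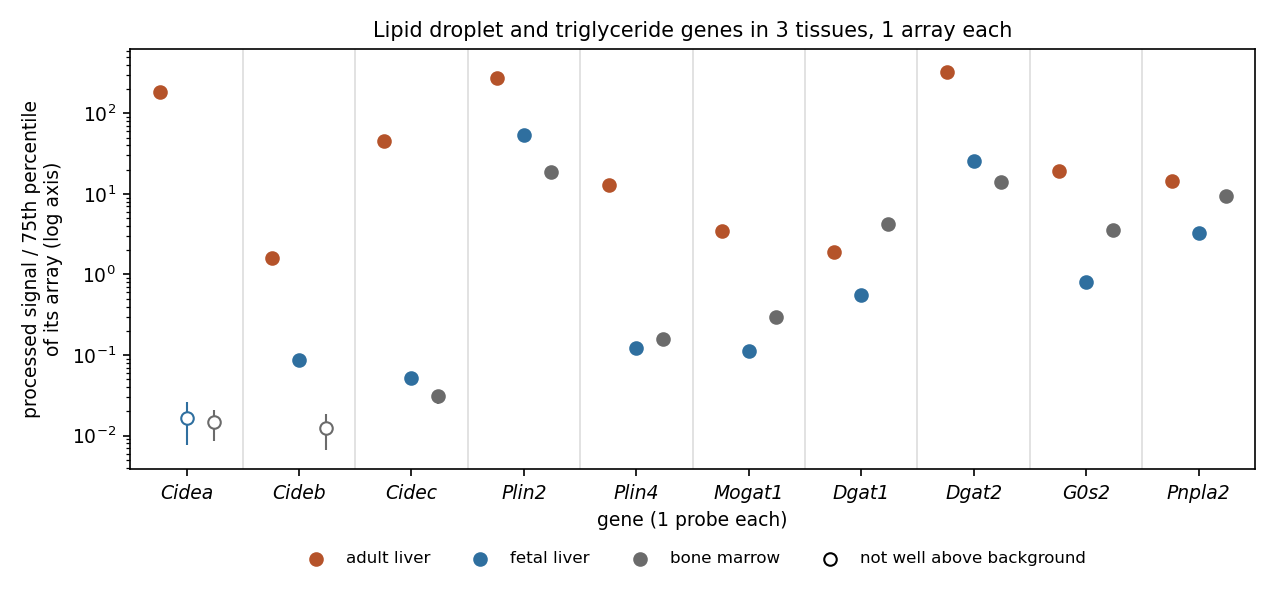
Processed signal of 1 probe per gene divided by the 75th percentile of its array (log axis), for adult liver, fetal liver and bone marrow, 1 array each. Filled points are well above background, open points are not, and vertical bars are the scanner software's error, which is smaller than the point for bright spots. With this scaling adult liver is the highest of the 3 tissues for every gene except Dgat1, which is highest in bone marrow. Heights compare tissues within a gene and not genes with each other, since probes differ in brightness.

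Among the 10 genes, the CIDE family members Cidea and Cidec showed the widest gaps. Cidea, which enlarges droplets and is best known from brown fat, had 55100 ± 5510 in adult liver, against 6.47 ± 3.55 in fetal liver and 13.3 ± 5.58 in bone marrow (scanner error). Only the adult liver value stood well above background, and it was at least 4782-fold over fetal liver and at least 7014-fold over bone marrow. Cidec, also called Fsp27, which drives the growth of large droplets in white adipocytes and fatty hepatocytes, had 13600 ± 1360 in adult liver, against 20.1 ± 3.75 in fetal liver and 27.6 ± 5.69 in bone marrow. All 3 values were above background, so the folds are measured: adult liver was 881-fold over fetal liver (log2 9.78, scanner error 0.31) and 1487-fold over bone marrow (log2 10.54, error 0.33). These folds, and the ranks that follow, rest on values just over the lowest signals well above background, 15 in fetal liver and 23.7 in bone marrow. Among genes measured on both arrays and higher in adult liver, Cidec stood at rank 29 of 6179 against fetal liver and rank 37 of 6433 against bone marrow. Its fetal liver and bone marrow values, 1.69-fold apart after scaling, lay within 1.88 scanner errors of each other. The Cidec probe lies at chr6:113374693-113374752 on the minus strand of mm9.

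Cideb, the family member of hepatocytes that also serves the lipid loading of very low density lipoprotein, had the same order of tissues. Its signal was 477 ± 47.9 in adult liver, against 33.7 ± 4.69 in fetal liver and 11.2 ± 5.27 in bone marrow, where it was not well above background. Adult liver was 18.4-fold over fetal liver (log2 4.20, error 0.25) and at least 60.7-fold over bone marrow, and fetal liver was at least 3.29-fold over bone marrow. Between adult and fetal liver, Cidec therefore differed 47.8-fold more than Cideb after one scale factor per array, whatever the factor. That ratio rests on a fetal liver signal of Cidec near the lowest signal well above background. The Cideb probe lies at chr14:56373987-56374046 on the minus strand of mm9.

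The perilipins split by how far they were present outside adult liver. Plin2, the perilipin of most cell types that store lipid, was bright in all 3 organs, with 81900 ± 8190 in adult liver, against 20600 ± 2060 in fetal liver and 16900 ± 1690 in bone marrow. Adult liver was 5.18-fold over fetal liver (log2 2.37) and 14.6-fold over bone marrow (log2 3.87), and fetal liver was 2.83-fold over bone marrow (log2 1.50), each with an error of 0.20. Both Plin2 calls ended with spike-in scaling (log2 1.88 over fetal liver and 1.04 over bone marrow), and the one over fetal liver also with quantile normalization (1.84) and without scaling (1.99). Plin4, a perilipin first described on the small new droplets of adipocytes, had 3780 ± 378 in adult liver, against 46.9 ± 5.98 in fetal liver and 143 ± 15.4 in bone marrow. That gave 105-fold over fetal liver (log2 6.71, error 0.23) and 79.8-fold over bone marrow (log2 6.32, error 0.21), while the fetal liver and bone marrow values lay within 1.64 scanner errors after scaling. Plin4 thus differed 20.3-fold more than Plin2 between adult and fetal liver and 5.46-fold more between adult liver and bone marrow. The Plin2 probe lies at chr4:86302676-86302735 and the Plin4 probe at chr17:56240055-56240114, both on the minus strand of mm9.

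**Figure D2:**
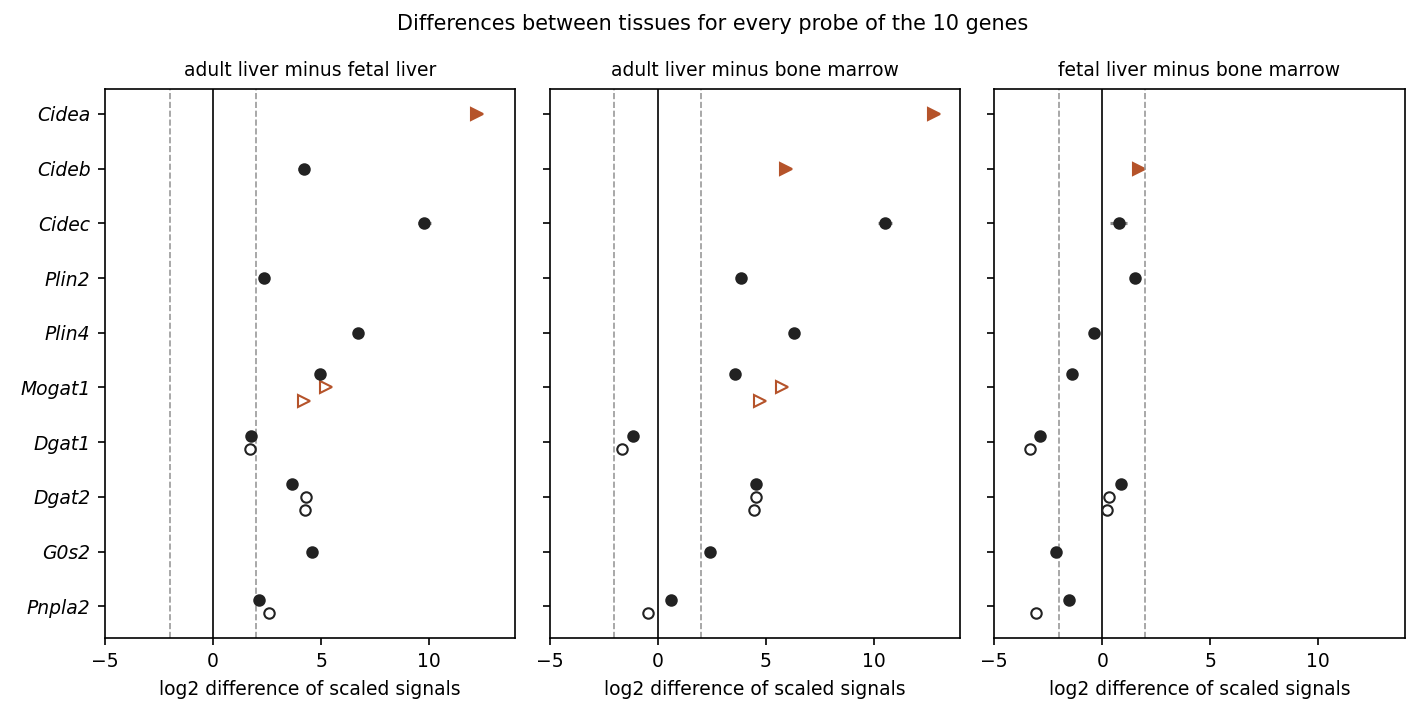
Log2 differences of scaled signals for every probe of the 10 genes in adult liver minus fetal liver, adult liver minus bone marrow and fetal liver minus bone marrow. Circles are measured differences with the scanner error as a bar, triangles are lower bounds, filled symbols are the probe that stands for the gene, and dashed lines mark 4-fold. All probes lie right of 0 against fetal liver, and those of Dgat1 and 1 probe of Pnpla2 lie left of 0 in adult liver minus bone marrow, where spike-in scaling moves G0s2 there too.

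Mogat1, the enzyme that joins a fatty acid to monoacylglycerol, was read by 3 probes. The brightest had 1040 ± 104 in adult liver, against 43.7 ± 5.68 in fetal liver and 266 ± 27.2 in bone marrow. Adult liver was 31.0-fold over fetal liver (log2 4.95, error 0.24) and 11.8-fold over bone marrow (log2 3.56, error 0.21), and bone marrow was 2.63-fold over fetal liver (log2 -1.39 for fetal liver minus bone marrow). The call over bone marrow ended with spike-in scaling (log2 0.73) and without scaling (1.97). The other probes disagreed with it on bone marrow. At 431 ± 43.4 and 212 ± 21.7 in adult liver, they had 3.91 and 3.69 in fetal liver and 6.59 and 5.65 in bone marrow, none of these well above background, which gave bounds of at least 37.4-fold and 18.4-fold over fetal liver and at least 54.9-fold and 27.0-fold over bone marrow. The bright probe at chr1:78534646-78534705 and the second at chr1:78534556-78534615 are neighbours on the plus strand of mm9, and the third lies at chr1:78525761-78525820. Whether the bone marrow signal of the bright probe comes from Mogat1 RNA was not tested.

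Dgat1 and Dgat2 catalyse the same last step of triglyceride synthesis but belong to unrelated protein families, and they had opposite orders between adult liver and bone marrow. Dgat2 had 97200 ± 9720 in adult liver, against 9930 ± 993 in fetal liver and 12600 ± 1260 in bone marrow on its brightest probe, which was 12.7-fold over fetal liver (log2 3.67) and 23.3-fold over bone marrow (log2 4.54). With spike-in scaling the difference from bone marrow was under 4-fold (log2 1.72). Its other 2 probes had 15100 ± 1510 and 3380 ± 338 in adult liver, 1010 ± 101 and 230 ± 23.2 in fetal liver, and 1910 ± 191 and 461 ± 46.4 in bone marrow. They gave 19.5-fold and 19.1-fold over fetal liver and 23.9-fold and 22.1-fold over bone marrow, so the 3 probes ranged within 12.7-fold to 19.5-fold and 22.1-fold to 23.9-fold. Fetal liver was 1.16-fold to 1.83-fold over bone marrow on the 3 probes. They lie between chr7:106302215-106302274 and chr7:106303052-106303111, on the minus strand of mm9.

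With this scaling, Dgat1 was the only member of the 10 whose highest level was in bone marrow on every probe. Its first probe had 556 ± 55.7 in adult liver, against 217 ± 21.9 in fetal liver and 3740 ± 374 in bone marrow, while its second had 309 ± 31.2, 124 ± 12.8 and 2930 ± 293 in the same order. Adult liver was 3.34-fold and 3.24-fold over fetal liver, just under the 4-fold of a call. Against bone marrow, the log2 differences of adult liver were -1.16 and -1.65, that is 2.23-fold and 3.14-fold higher levels in bone marrow, and bone marrow was 7.44-fold and 10.2-fold over fetal liver. On the first probe, higher levels in bone marrow than in both livers held under every scaling tried. Set against Dgat1, Dgat2 differed 3.82-fold more between adult and fetal liver (3.82-fold to 6-fold over the 6 probe pairs) and 51.9-fold more between adult liver and bone marrow (49.3-fold to 74.96-fold). The Dgat1 probes lie at chr15:76333128-76333274 and chr15:76333491-76333707 on the minus strand of mm9, and cover 147 and 217 bases of the genome where each other member probe covers 60.

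On the side of breakdown stand Pnpla2, the adipose triglyceride lipase, and its inhibitor G0s2. G0s2, a small protein that binds the lipase and blocks it, had 5720 ± 572 in adult liver, against 315 ± 31.7 in fetal liver and 3200 ± 320 in bone marrow. Adult liver was 23.6-fold over fetal liver (log2 4.56) and 5.39-fold over bone marrow (log2 2.43), and bone marrow was 4.38-fold over fetal liver (log2 -2.13 for fetal liver minus bone marrow). The call against bone marrow ended without scaling (log2 0.84) and with scaling on spike-in RNA, under which adult liver was lower (log2 -0.39). Pnpla2 had 4310 ± 431 in adult liver, against 1270 ± 127 in fetal liver and 8440 ± 844 in bone marrow on its first probe, which after scaling was 4.42-fold over fetal liver (log2 2.14) and 1.54-fold over bone marrow (log2 0.62). The call over fetal liver ended with quantile normalization (log2 1.91), spike-in scaling (1.65) and no scaling (1.76), and the sign against bone marrow turned with the last of these (-0.97) and with spike-in scaling (-2.20). Its second probe, with 347 ± 35.1, 74 ± 8.29 and 1440 ± 144 in the same order, was 6.11-fold over fetal liver but had a log2 difference of -0.46 against bone marrow. The 2 probes thus gave opposite signs for adult liver against bone marrow, and no direction is stated for it. Fetal liver was the lowest of the 3 organs on both, at 2.87-fold and 8.40-fold under bone marrow.

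Relative to Pnpla2, G0s2 differed 5.35-fold more between adult and fetal liver (3.87-fold with the second Pnpla2 probe) and 3.5-fold more between adult liver and bone marrow (7.42-fold with the second). Between fetal liver and bone marrow the sign of this ratio depended on the Pnpla2 probe, from -0.61 to 0.94 on the log2 scale. The G0s2 probe lies at chr1:195098925-195098984 on the minus strand, and the Pnpla2 probes at chr7:148645930-148645989 and chr7:148645100-148645159 on the plus strand of mm9.

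By the order of their levels after scaling, the members fell into 3 patterns, with Cidea apart because only adult liver gave a level. Cideb, Cidec, Plin2 and Dgat2 ran adult liver, fetal liver, bone marrow. Plin4, Mogat1, G0s2 and Pnpla2 ran adult liver, bone marrow, fetal liver, where for Pnpla2 the first place rests on 1 of its 2 probes. For Mogat1 the order of bone marrow and fetal liver rests on 1 probe, since its other probes were dim in both. Dgat1 ran bone marrow, adult liver, fetal liver. Fetal liver and bone marrow did not differ beyond 2 scanner errors for Cidec and Plin4, nor on the less bright probes of Dgat2 (log2 0.29, error 0.20, and log2 0.21, error 0.21). The sign between these organs turned under spike-in scaling for Cidec, Plin2 and Dgat2 and under normexp background correction for Plin4 (log2 0.22).

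**Figure D3:**
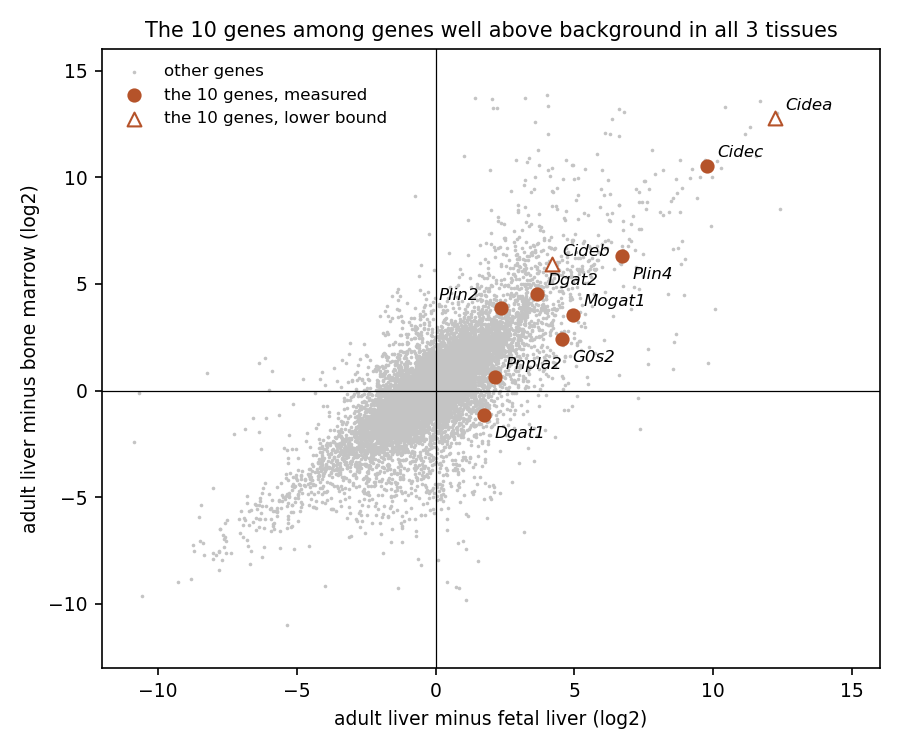
Adult liver minus fetal liver (x axis) and adult liver minus bone marrow (y axis), both log2 differences of scaled signals, for genes well above background in all 3 tissues (grey) and for the 10 genes (orange). Triangles are members with a lower bound on at least 1 axis. Each gene is shown by 1 probe. Cidea, Cidec and Plin4 lie far along the diagonal, and Mogat1, G0s2 and Pnpla2 lie below it. With this scaling and these probes, Dgat1 is alone of the 10 below 0 on the y axis. The second Pnpla2 probe, not shown, was also below 0 there (log2 -0.46). The other Mogat1 probes, not shown, gave larger bounds against bone marrow than against fetal liver.

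Genes with the most similar pair of differences were listed by distance in these 2 log2 differences, over 3 arrays only. For Cidea they were Mup5, Mug2 and Cyp2e1, at distances of 0.087 to 0.588 among 448 candidates with the same detection, where the distances lie between lower bounds and so follow the adult liver signals alone. For Cidec they were Cyp2c37, Cyp4a12a and Adh1, at 0.280 to 0.517 among 11687 candidates. Mup5 belongs to the major urinary proteins secreted by the liver, and Cyp2e1, Cyp2c37 and Cyp4a12a are cytochrome P450 enzymes. For Plin4 they were Kynu, Rarres2 and Serpina3j, for Dgat2 Psen2, Qdpr and Fam241b, and for Dgat1 Gvin1, Ccpg1 and Phf24, all at distances up to 0.267. With 3 arrays many genes share any pattern, so likeness here is a description of levels.

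The rest of the pathway was read through lists of genes outside the 10. Of 63 compared, 42 passed 4-fold towards adult liver over fetal liver and 4 the other way, and 44 of 63 towards adult liver over bone marrow and 3 the other way (22 and 12 with spike-in scaling). Between fetal liver and bone marrow, 15 of 61 were at least 4-fold higher in fetal liver and 4 in bone marrow, a lean that turned with spike-in scaling to 7 and 26. Over all genes that scaling turned 1370 and 1218 calls to 315 and 7791, so the turn is not read as a trait of the pathway. The shares over all genes were 14.1% and 12.1%, 18.8% and 15.0%, and 9.33% and 8.30% in the order of these comparisons. The median differences of the listed genes were 7.88-fold, 8.74-fold and 1.82-fold towards the first-named tissue.

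Among 14 other droplet proteins compared, 5 were called towards adult liver over fetal liver and none the other way, with a median of 1.94-fold. Plin5, a perilipin of oxidative tissues, had 5550 in adult liver, against 48.7 in fetal liver and 305 in bone marrow, which was 148-fold and 54.9-fold in favour of adult liver. Hsd17b13, a droplet protein of hepatocytes, had 1770 in adult liver and was not well above background elsewhere, at least 154-fold over fetal liver. Fitm1, which helps droplets form, had 612 in adult liver and was likewise dim in the other organs, at least 53.1-fold over fetal liver. Plin1, the perilipin that defines mature adipocytes, was not well above background in any organ.

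Among 17 other synthesis genes, 10 were called towards adult liver over fetal liver and 3 the other way, and 11 and 2 against bone marrow, which spike-in scaling turned to 3 and 5. Gpd1, which supplies glycerol 3-phosphate, had 98100 in adult liver, against 3660 in fetal liver and 1120 in bone marrow, or 34.9-fold and 264-fold. Agpat2, an acyltransferase of the middle step, had 4770 in adult liver, against 198 in fetal liver and 2570 in bone marrow, or 31.4-fold and 5.60-fold. The opposite side held Mogat2, the second monoacylglycerol acyltransferase, with 116 in adult liver, against 8010 in fetal liver and 7930 in bone marrow. It was 53.0-fold higher in fetal liver and 22.7-fold higher in bone marrow than in adult liver, while Mogat1 was higher in adult liver. Agpat4 had 353 in adult liver, against 13300 in fetal liver and 16900 in bone marrow, 28.9-fold and 15.9-fold lower in adult liver.

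Among 12 other lipolysis genes compared, 9 were called towards adult liver over fetal liver and 1 the other way, with the same counts against bone marrow (4 and 4 with spike-in scaling). The carboxylesterase Ces1d, a triglyceride hydrolase of the liver, had 18900 in adult liver, against 52.6 in fetal liver and 444 in bone marrow, or 468-fold and 128-fold. Its relative Ces1g had 9830 in adult liver and 46.1 in fetal liver, or 278-fold, and was not well above background in bone marrow. Lpl, the lipoprotein lipase at the surface of blood vessels, went the other way with 322 in adult liver, against 2040 in fetal liver and 4800 in bone marrow. All 9 genes of lipoprotein assembly and fatty acid uptake were called towards adult liver over fetal liver, and 8 of 9 over bone marrow, where 6 of the 8 are bounds against a dim bone marrow probe and 2 calls remain if both arrays must be well above background. Of 11 regulators, 9 were called towards adult liver over fetal liver and 10 over bone marrow (5 with spike-in scaling), among them Ppara, the fatty acid sensor of hepatocytes, at 5486 in adult liver, against 199.5 in fetal liver and a dim 26.75 in bone marrow.

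**Figure D4:**
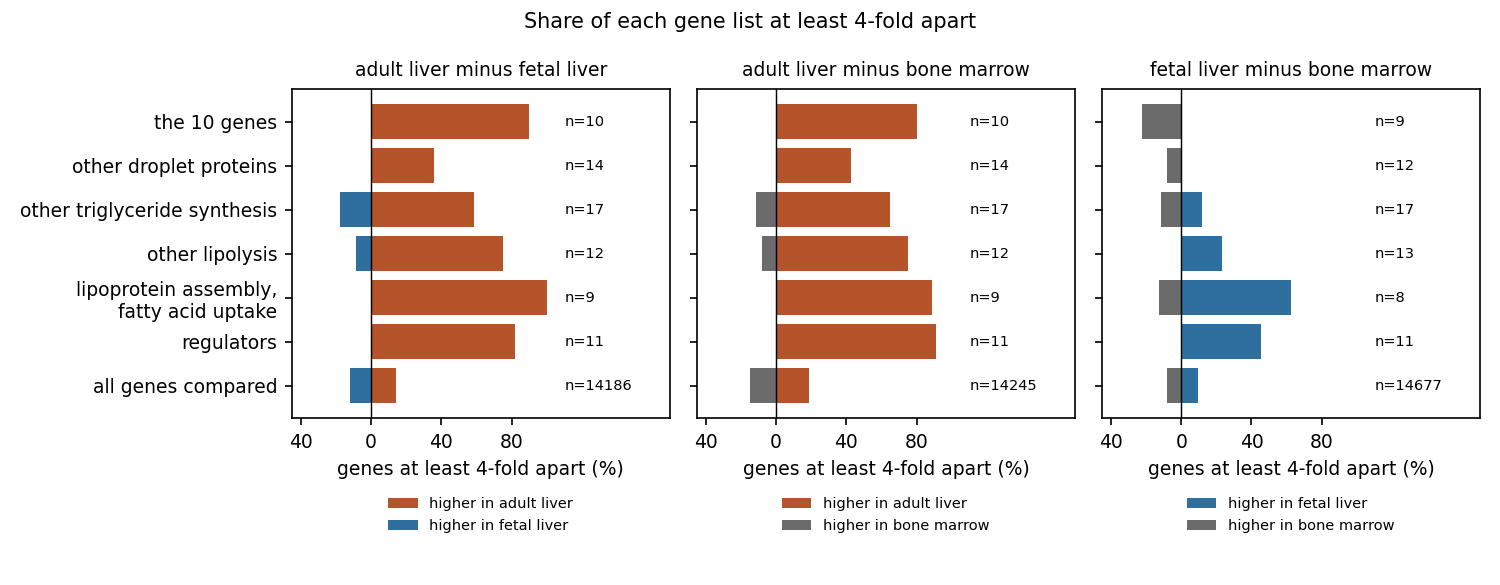
Share of each gene list at least 4-fold higher in the first-named tissue (bars to the right) or in the other (bars to the left), in percent of the genes compared, whose number n stands beside each row. The bottom row gives all genes compared. In both comparisons with adult liver every list leans to adult liver with the scaling shown, though with spike-in scaling synthesis genes had 3 calls towards adult liver and 5 towards bone marrow, and between fetal liver and bone marrow the 10 genes and the other droplet proteins show calls in bone marrow only.

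Markers of other cells moved with some of these values. The white adipocyte list had 4 of its 8 genes clear of background in adult liver, while 3 were so in fetal liver and 5 in bone marrow, with summed scaled signals of 23.9, 6.49 and 17.7. Cfd, the complement factor adipsin, had 2610 in adult liver, a dim 4.31 in fetal liver and 180 in bone marrow, at least 226.5-fold and 43.7-fold higher in adult liver, as Cidec and Plin4 were, and its part in those results was not tested. Adipoq, the adipocyte hormone adiponectin, was well above background in bone marrow alone, at 3.89 in adult liver, against 3.07 in fetal liver and 2500 in bone marrow, whereas Plin1, Lep and Retn were not well above background in any organ. The brown adipocyte list had 5, 4 and 4 of 8 genes well above background in adult liver, fetal liver and bone marrow, with sums of 90, 2.76 and 1.69, which in adult liver came mostly from Elovl3 at 25700. Ucp1 and Otop1, which define brown fat, were not well above background in any organ. Cox8b was well above background in adult liver alone, at 62.1 and at least 5.39-fold over fetal liver and 7.23-fold over bone marrow, and Cox7a1 had 776 in adult liver, against 584 in fetal liver and 459 in bone marrow. In the same order of tissues, Prdm16 had 30.3, 260 and 196, Dio2 a dim 6.17, 27.5 and 749, and Cpt1b 122, 195 and 108. After scaling, adult liver was thus lowest for Prdm16, by 6.59-fold and 2.14-fold. For Dio2 it lay at least 13.1-fold under bone marrow. For Cpt1b it lay 1.23-fold under fetal liver but 3.41-fold over bone marrow. The part of brown adipocytes in the Cidea signal was not tested. Bone marrow, where Dgat1 was highest and G0s2 exceeded fetal liver, had 9 of 9 neutrophil and monocyte markers well above background with a sum of 1520, against 144 in fetal liver, also with 9, and 2.74 in adult liver with 3. The part of these cells in the levels of Dgat1, G0s2 or Pnpla2 was not tested.

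How firmly the comparisons with bone marrow can be read depended on scaling, and that array was the brightest as a whole. Over all genes, the median difference was shifted by -2.83 on the log2 scale for adult liver minus bone marrow and by -2.33 for fetal liver minus bone marrow when 8 spike-in probes set the scale, but by only -0.50 for adult liver minus fetal liver. A shift of the whole array leaves the order of the members' differences as it was, but with the spike-in scale 4 members passed 4-fold towards adult liver and 2 towards bone marrow. Against fetal liver 7 to 9 of the 10 stayed called in every alternative at this threshold and none was called higher in fetal liver.

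**Figure D5:**
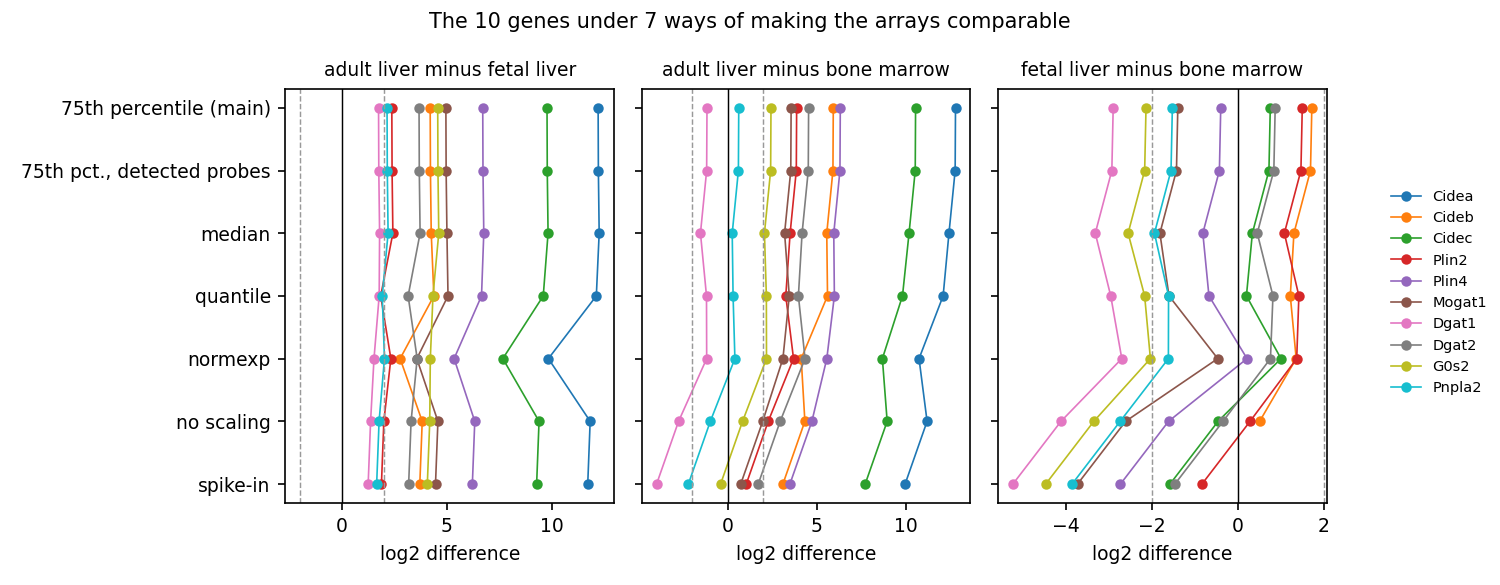
Log2 differences of the 10 genes under 7 ways of making the arrays comparable, with 1 line per gene and the dashed lines at 4-fold. In adult liver minus fetal liver all points stay right of 0, while in both comparisons with bone marrow the spike-in and unscaled settings move every gene to the left, so that G0s2 and Pnpla2 in adult liver minus bone marrow, and Cidec, Plin2 and Dgat2 in fetal liver minus bone marrow, pass 0 in at least 1 of them.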

How the data were processed

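Total RNA was amplified, labelled with Cy3 and hybridised per the labels' protocols. The authors deposited 1 scanner file per tissue, read with Agilent Feature Extraction 10.5.1.1 per the submitters' processing notes; its processed signal intensity is, per the file headers, background-subtracted and free of any normalization across arrays. The authors' normalized ratio column in the deposited series table matched, to within 1%, the scaled error of the signal and not the signal, for 45018 of 45018 spots on every array, so that table was used only as an alternative.

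From the scanner files, log2 of the signal minus each array's 75th percentile over gene spots was taken (pandas 2.3.3 and numpy 2.4.6 under Python 3.11.15). Control spots and 71 to 80 outlier gene spots per array were left out and spots of 1 probe averaged. Of 41174 probes, 24844 were named by accession, 6045 by current symbol, 1796 by older symbol, and 8489 were left unnamed. Where a gene had several probes, as for 8598 genes, the one well above background on most arrays stood for it, with ties going to the brightest. Probe coordinates are those of the files (mm9); exon and intron annotation of that build was not used here. The precision is limited by 1 array per tissue: probes spotted 10 times had a median SD of 0.053 to 0.070 (log2), which covers the array only. The calling of differences was tried on simulated levels without any scale difference between arrays. Recovery was checked only for genes measured on both arrays, so the scaling and the bounds were not tested by it. Alternatives in R 4.3.3 with limma 3.58.1 (normexp with an offset of 50, quantile) and in scaling, filters, probe choice and threshold are given in the closing part.

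The 10 genes and all lists were chosen with earlier results of these data known. The text names every member and, of each other list, up to 3 genes with the largest difference per direction, defining markers, and the 3 genes nearest in pattern to 5 members.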

Additional observations from a re-analysis of the deposited data

How the results depend on the processing

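No paired analysis was possible because each tissue has 1 array, and for the same reason no replicate could be left out. Against fetal liver the count of members past 4-fold towards adult liver was 9, at the lowest 7, and none passed it towards fetal liver in any setting. At 4-fold, scaling on spike-in RNA gave 4 members towards adult liver over bone marrow instead of 8, and 2 the other way instead of 0. It gave 5 instead of 2 at least 4-fold higher in bone marrow than in fetal liver. Over all genes the same counts went from 2676 to 849, from 2139 to 9635 and from 1218 to 7791. Spike-in scaling kept 23 of 28 signs and 13 of 19 calls. It turned the signs of G0s2 (log2 -0.39) and Pnpla2 (-2.20) in adult liver minus bone marrow. In fetal liver minus bone marrow it turned those of Cidec, Plin2 and Dgat2. Leaving out the scaling kept 26 of 29 signs and 15 of 19 calls. Without scaling between arrays, 1 member was at least 4-fold higher in bone marrow than in adult liver and 4 were at least 4-fold higher than in fetal liver. At a 2-fold threshold 1 member was higher in bone marrow than in adult liver, 2 were higher in fetal liver than in bone marrow and 4 in bone marrow than in fetal liver. At an 8-fold threshold that last count was 0. With no filter on dim probes 1 member, Cideb, was higher in fetal liver than in bone marrow. These changes come from the array-wide shift, the threshold or the filter by construction. Median scaling, the 75th percentile of detected probes, the mean of all probes and the authors' normalized column kept the sign of 29 of 29 member differences and 19 of 19 calls. The authors' column holds the scaled error, which follows the signal in bright spots, so its agreement adds no support. For Pnpla2 in adult liver minus bone marrow, the mean joins probes of opposite sign (log2 0.62 and -0.46). For Mogat1 in fetal liver minus bone marrow, it takes in probes that were dim in both. Taking the brightest probe could not change a member, since that probe already stood for each of them. Quantile scaling kept 29 signs and 17 calls, and normexp 28 signs. Keeping outlier spots, an alternative chosen after seeing the data, also kept 29 signs and 19 calls. No member spot was an outlier, so that result says nothing about how firm the member differences are. For Cideb no spike-in scaled value could be had in fetal liver minus bone marrow. What signal over background limits is Cidea, Cideb and the dim Mogat1 probes, whose folds against a dim signal are bounds. It also limits Cidec, whose measured folds rest on fetal liver and bone marrow signals close to the lowest ones well above background.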

Other observations

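Stellate cells are the other droplet store of the liver, where Lrat makes retinyl esters, and their markers were read beside the 10 genes. All 8 cleared background in adult liver, and 6 did so in fetal liver and 6 in bone marrow, with summed scaled signals of 68.3, 29.9 and 4.8. Lrat had 391 in adult liver, at least 29.1-fold over fetal liver, where its 17.5 was not well above background, and at least 49.8-fold over bone marrow with its dim 5.7. Of the 8, 4 passed 4-fold towards adult liver over fetal liver and 7 over bone marrow. Reln was highest in fetal liver, with 1950 in adult liver, against 4893 in fetal liver and 644.5 in bone marrow.

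Macrophage markers were present in all 3 organs, with 9, 8 and 8 of 9 genes well above background in adult liver, fetal liver and bone marrow and sums of 97.2, 54.7 and 49.6. Clec4f, the lectin of resident liver macrophages, had 3850 in adult liver, against 63 in fetal liver and a dim 10.8 in bone marrow, 79.6-fold and at least 490.1-fold. Cd68 was highest in bone marrow, with 202 in adult liver, against 151 in fetal liver and 4660 in bone marrow.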
